A study of Mus musculus with 12 samples.

Results

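The insulin-like growth factor (IGF) system was followed through 10 genes: the binding proteins Igfbp2, Igfbp3, Igfbp4, Igfbp5, Igfbp6 and Igfbp7, the ligand Igf1, the receptors Igf1r and Igf2r, and the adaptor Irs1. They were taken by symbol from the 20325 genes of the deposited tables, with earlier results of these data known. All 10 were among the 13936 genes that passed the filter on low counts, and the lowest expected count of any of them in a library was 165, for Igfbp2. The libraries were made from polyadenylated RNA of mouse embryonic fibroblasts (MEFs) that carried floxed alleles of AF10 (Mllt10), rtTA (the activator that doxycycline switches on) and OSKM, an inducible set of the reprogramming factors Pou5f1, Sox2, Klf4 and Myc. AF10 is a partner of DOT1L, the methyltransferase of lysine 79 of histone H3, and SGC0946 inhibits DOT1L. There were 6 groups of 2 libraries. Day4_creAF10_SGC, Day4_fl_SGC, Day4_creAF10_DMSO and Day4_fl_DMSO were cells on day 4 of reprogramming with 2 µg/mL doxycycline, in 5 µM SGC0946 or in its vehicle DMSO. MEF_creAF10 and MEF_fl were fibroblasts before reprogramming. The creAF10 groups had received the adenovirus Ad5-CMV-Cre and are labelled AF10 -/-, and the fl groups had received Ad5-CMV-Empty and are labelled AF10 fl/fl. The design has no Cre virus control on wild-type alleles, so an effect of AF10 deletion and an effect of that virus cannot be told apart. MEF medium was used before reprogramming. Day 4 cells grew on gelatin with DR4 feeder MEFs in a stem cell medium that contains leukemia inhibitory factor. Doxycycline, medium and feeders therefore differ between day 4 and MEFs, and RNA of feeder cells may be in the day 4 libraries.

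IGF1 and IGF2 are secreted growth factors that activate the receptor tyrosine kinase IGF1R, which recruits adaptors such as IRS1 and, through them, the phosphoinositide 3-kinase and AKT pathway. IGF2R has no kinase and carries IGF2, together with enzymes tagged with mannose 6-phosphate, to lysosomes. The IGF binding proteins (IGFBPs) hold IGFs in the extracellular space, and proteases that cut them set the ligand free. Fibroblasts secrete several of these proteins.

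The promoters of 3 of these genes are shown because the genes stand for 3 kinds of behaviour in the values that follow: Igfbp5, lower on day 4 than in MEFs and lower again in SGC0946; Igfbp3, which had no common change; and Igf1r, higher on day 4. Each is the 250 bases upstream of a RefSeq start on build GRCm38.p6, 5′ to 3′ on the gene's strand, and the build differs from the mm9 build of the read counts. Capitals mark TATTTAA in Igfbp5, TATATA in Igfbp3 and the GC box GGGCGG in Igf1r.
Igfbp5, chr1:72874866-72875115, minus strand: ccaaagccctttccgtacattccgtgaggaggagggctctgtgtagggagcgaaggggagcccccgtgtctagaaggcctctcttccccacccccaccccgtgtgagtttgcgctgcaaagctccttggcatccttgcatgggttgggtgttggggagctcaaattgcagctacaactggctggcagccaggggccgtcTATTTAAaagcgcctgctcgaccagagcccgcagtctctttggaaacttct
Igfbp3, chr11:7213924-7214173, minus strand: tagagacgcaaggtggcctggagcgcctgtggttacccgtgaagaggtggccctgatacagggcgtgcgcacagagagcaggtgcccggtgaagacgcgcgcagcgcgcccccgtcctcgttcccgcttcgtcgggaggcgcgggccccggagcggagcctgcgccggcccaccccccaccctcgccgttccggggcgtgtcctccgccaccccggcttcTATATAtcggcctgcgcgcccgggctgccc
Igf1r, chr7:67952007-67952256, plus strand: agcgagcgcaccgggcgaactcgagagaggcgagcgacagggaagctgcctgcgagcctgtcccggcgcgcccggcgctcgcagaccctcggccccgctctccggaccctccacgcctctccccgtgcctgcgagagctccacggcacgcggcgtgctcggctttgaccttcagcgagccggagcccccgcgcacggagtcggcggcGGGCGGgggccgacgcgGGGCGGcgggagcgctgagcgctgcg
G and C made up 58.8% of the Igfbp5 window, 73.2% of the Igfbp3 window and 77.6% of the Igf1r window, against a median of 52.4% over all 32851 windows of this length. TATTTAA began 51 bases before the Igfbp5 start, and 4.18% of all windows held it on either strand. TATATA began 30 bases before the Igfbp3 start, and 5.25% of all windows held it. The GC box was present in the windows of Igfbp2, Igfbp7, Igf1r, Igf2r and Irs1, and in 32.7% of all windows. The letters TATAAA, held by 12.4% of all windows, were present for Igfbp4 and Igfbp6, and the E-box CACGTG, held by 6.02%, for Igfbp2, Igf2r and Irs1. All 10 genes had a RefSeq window, 11 in all, and both strands were searched. The motifs were chosen after the sequences were seen, and a match is only a description of these letters. Igfbp2 and Igfbp5 are neighbours on chromosome 1 and Igfbp1 and Igfbp3 on chromosome 11 in the same annotation.

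Library totals were 14602536 to 22800753 expected counts. Transcripts of Mllt10, the deleted gene, stood in creAF10 libraries at 72.1% to 82.1% of their fl level, and its counts cover the whole gene, so they do not give the share of deleted alleles. The 8 fibroblast markers summed to 11800 to 14100 CPM (counts scaled to a common library size) on day 4, against 42900 to 61400 CPM in MEFs. The 8 macrophage and blood markers summed to 49.4 to 73.3 CPM on day 4, against 5.29 to 12.8 CPM in MEFs. Of the 7 that were tested, 3 rose in AF10-deleted cells and 4 in fl cells, where 27.5% and 25.7% of all genes rose. Laptm5 made up 36.1 to 57.5 CPM of the day 4 sum, Lyz2 5.74 to 14.4 CPM and Cd68 4.15 to 5.58 CPM, and the other 5 markers, Csf1r and Ptprc among them, were each at or below 2.2 CPM in every library. In bulk RNA, fewer cells of a type and less RNA per cell cannot be told apart. Libraries with the same replicate number deviated together from their group means in every pair of groups, and were compared as pairs in a second fit. No source names separate animals or cultures, so the labels give the replicates only as 2 preparations. The expected counts of 4 Y-linked genes summed to 4035 to 4780 in replicate 1 libraries and 8 to 52 in replicate 2 libraries. Replicate 1 therefore held male cells and replicate 2 almost none. Sex cannot be told apart from other differences between the replicates. A p-value without pairing measures the spread between these 2 preparations. A p-value with pairing measures only the spread that is left once the difference shared by libraries of the same number is taken out.

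The first question was how the IGF genes differ between cells on day 4 and the MEFs they came from. Most binding proteins and the ligand Igf1 were far lower on day 4, Igf1r was higher, and Igfbp3 did not share the fall. In the fit without pairing, 1 of the 10 genes rose and 5 fell in fl cells (edgeR's quasi-likelihood F test with p adjusted by Benjamini-Hochberg, threshold 0.05), where 25.7% of all tested genes rose and 26.3% fell. In AF10-deleted cells 1 rose and 6 fell, where 27.5% of all genes rose and 27.5% fell. The median log2 change of the 10 genes was -1.83 in AF10-deleted cells and -2.08 in fl cells, against 0.02 and 0.01 over all tested genes.

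Igfbp5, which binds IGFs and the extracellular matrix, had 268.3 and 287.2 CPM in Day4_creAF10_DMSO, against 4002 and 4915 CPM in MEF_creAF10. In fl cells it had 334.5 and 355.6 CPM in Day4_fl_DMSO, against 4288 and 4831 CPM in MEF_fl. All 4 day 4 libraries were below all 4 MEF libraries by a wide margin. The log2 change was -4.01 ± 0.16 (SE) in AF10-deleted cells and -3.72 ± 0.16 in fl cells (n = 2 libraries per group, edgeR adjusted p = 2.33e-07 and 2.05e-07), that is, levels 16.1-fold and 13.2-fold lower on day 4.

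Igfbp2, its neighbour on chromosome 1 and a binding protein with a preference for IGF2, had 12.87 and 9.216 CPM in Day4_creAF10_DMSO, against 230.6 and 132.6 CPM in MEF_creAF10. The fl libraries had 12.93 and 8.39 CPM in Day4_fl_DMSO, against 255.9 and 130.3 CPM in MEF_fl. Replicate 1 was above replicate 2 in every group, and this spread was small beside the gap between the stages. The log2 change was -4.04 ± 0.50 in AF10-deleted cells and -4.19 ± 0.50 in fl cells (edgeR adjusted p = 0.000291 and 0.00027).

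Igfbp4, whose complex with IGF is opened by the protease PAPP-A, had 246.2 and 217.6 CPM in Day4_creAF10_DMSO, against 1048 and 1046 CPM in MEF_creAF10. It had 229.3 and 169.6 CPM in Day4_fl_DMSO, against 993.4 and 1148 CPM in MEF_fl. Igfbp7, a secreted protein that binds IGFs only weakly, had 35.26 and 37.14 CPM in Day4_creAF10_DMSO, against 221.5 and 165.1 CPM in MEF_creAF10. The groups of both genes lay far apart. In fl cells Igfbp7 had 39.52 and 32.00 CPM in Day4_fl_DMSO, against 255.4 and 178.8 CPM in MEF_fl. Igfbp4 fell by 2.18 ± 0.20 on the log2 scale in AF10-deleted cells and by 2.42 ± 0.20 in fl cells, and the log2 change of Igfbp7 was -2.42 ± 0.21 in AF10-deleted cells and -2.60 ± 0.21 in fl cells, with edgeR adjusted p values of 1.35e-05 to 2.26e-05.

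Igfbp6, a binding protein that prefers IGF2, varied widely between replicates. It had 29.64 and 15.86 CPM in Day4_creAF10_DMSO, against 92.57 and 34.82 CPM in MEF_creAF10, and replicate 1 was the higher of each pair. In fl cells it had 23.50 and 12.42 CPM in Day4_fl_DMSO, against 86.85 and 31.49 CPM in MEF_fl. The groups did not overlap in either genotype, and the log2 change was -1.48 ± 0.65 in AF10-deleted cells and -1.73 ± 0.66 in fl cells (edgeR adjusted p = 0.0879 and 0.0584). Without replicate 2 of MEF_fl the change in fl cells was -2.28 and passed (edgeR adjusted p = 0.0343), and without replicate 1 of MEF_fl it was -0.82. With the replicate number as a block the change was -1.41 ± 0.23 in AF10-deleted cells and -1.65 ± 0.24 in fl cells (edgeR adjusted p = 0.000953 and 0.000455).

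Igfbp3, the main carrier of IGFs in blood serum, differed from the other binding proteins in that its replicates went apart. In replicate 1 it had 1801 CPM in Day4_creAF10_DMSO and 1777 CPM in MEF_creAF10, a log2 change of 0.02, and in replicate 2 it had 2220 CPM in Day4_creAF10_DMSO and 887.5 CPM in MEF_creAF10, a log2 change of 1.32. The fl pairs showed the same, with 1752 CPM in Day4_fl_DMSO and 1702 CPM in MEF_fl in replicate 1, and 1956 CPM in Day4_fl_DMSO and 810.7 CPM in MEF_fl in replicate 2. The day 4 levels were thus fairly close in both replicates, while the MEF level of replicate 2 was far below that of replicate 1 in both genotypes. The mean log2 change was 0.59 ± 0.40 in AF10-deleted cells and 0.56 ± 0.40 in fl cells, and neither passed the test (edgeR adjusted p = 0.242 and 0.273). Without replicate 1 of MEF_fl the change in fl cells was 1.19 and passed (edgeR adjusted p = 0.0485), and without replicate 2 of MEF_fl it was 0.12.

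**Figure D1:**
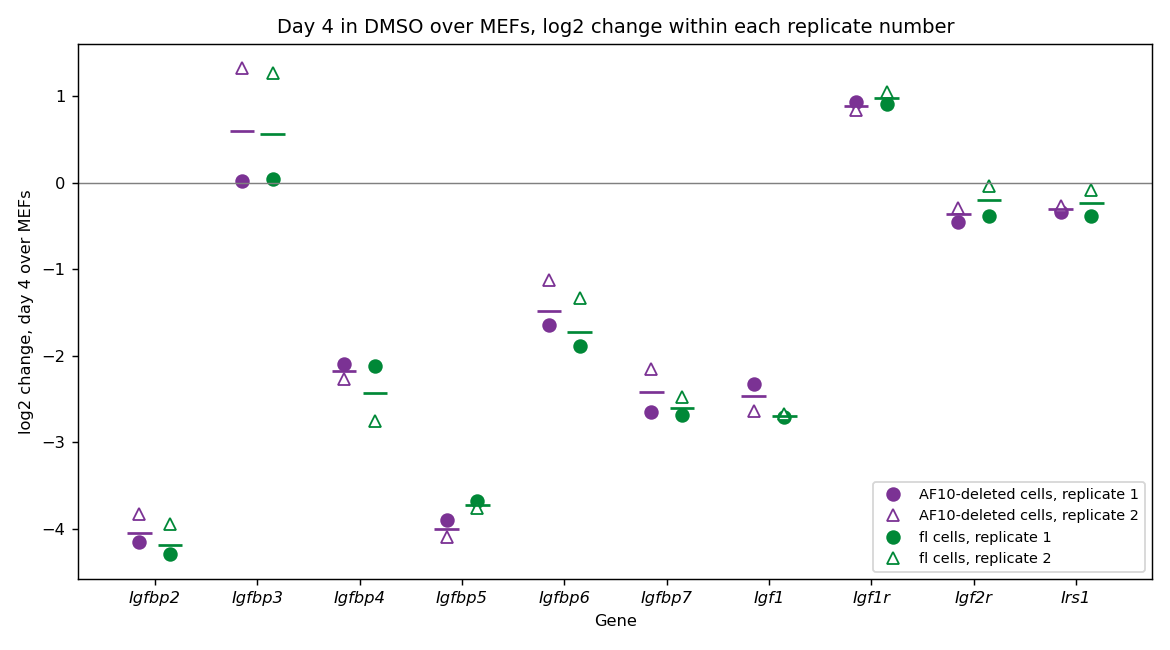
Log2 change of each gene, day 4 in DMSO over MEFs, within replicate 1 (filled circles) and replicate 2 (open triangles), with AF10-deleted cells left of fl cells and the fitted change as a line. Igfbp3 has replicate 1 near 0.02 to 0.04 and replicate 2 at 1.27 to 1.32, whereas the replicates of Igfbp5 and Igf1r lie close together.

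The ligand gene Igf1 had 48.92 and 32.12 CPM in Day4_creAF10_DMSO, against 246.2 and 199.8 CPM in MEF_creAF10. It had 37.05 and 31.40 CPM in Day4_fl_DMSO, against 242.8 and 201.5 CPM in MEF_fl. The stages were well apart in both genotypes. It fell by 2.46 ± 0.20 on the log2 scale in AF10-deleted cells and by 2.70 ± 0.20 in fl cells (edgeR adjusted p = 1.31e-05 and 8.83e-06).

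Igf1r, the signalling receptor, went the other way. It had 189.9 and 200.2 CPM in Day4_creAF10_DMSO, against 99.37 and 112.2 CPM in MEF_creAF10. In fl cells it had 218.9 and 235.4 CPM in Day4_fl_DMSO, against 116.1 and 113.9 CPM in MEF_fl. Replicates were close together and the stages did not overlap. It was 1.84-fold higher on day 4 in AF10-deleted cells and 1.98-fold higher in fl cells, log2 changes of 0.88 ± 0.08 and 0.98 ± 0.08 (edgeR adjusted p = 1.85e-05 and 1.03e-05).

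Igf2r, the uptake receptor, had 538.9 and 661.4 CPM in Day4_creAF10_DMSO, against 737.6 and 807.2 CPM in MEF_creAF10, and 625.4 and 776.6 CPM in Day4_fl_DMSO, against 814.6 and 797.5 CPM in MEF_fl. Day 4 libraries were lower in each pair, but by little beside their spread. It fell by 0.36 ± 0.13 on the log2 scale in AF10-deleted cells (edgeR adjusted p = 0.0393), and the change in fl cells was -0.20 ± 0.13 (edgeR adjusted p = 0.226). The call in AF10-deleted cells was lost without replicate 1 of MEF_creAF10 (edgeR adjusted p = 0.0503), without replicate 2 of MEF_creAF10 (0.157, change -0.30) and without replicate 1 of Day4_creAF10_DMSO (0.255, change -0.22). Pairing with the replicate block gave -0.37 ± 0.09 in AF10-deleted cells and -0.21 ± 0.09 in fl cells (edgeR adjusted p = 0.00375 and 0.0624). Igf2r is an imprinted gene, as are Igf2, the other ligand, and Grb10, an adaptor that dampens receptor signalling. The values of Igf2 and Grb10 stand with the pathway genes further on.

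Irs1, the adaptor, lay slightly lower on day 4. It had 134.0 and 132.5 CPM in Day4_creAF10_DMSO, against 170.0 and 160.0 CPM in MEF_creAF10, and 130.9 and 139.3 CPM in Day4_fl_DMSO, against 170.3 and 148.2 CPM in MEF_fl. The log2 change was -0.31 ± 0.12 in AF10-deleted cells and -0.24 ± 0.12 in fl cells (edgeR adjusted p = 0.0596 and 0.137). With the replicate block the change in AF10-deleted cells passed the test (-0.31 ± 0.12, edgeR adjusted p = 0.0377).

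Since Igfbp3 did not fall while the other binding proteins were lower, the make-up of IGFBP transcripts differed between the stages. The comparison used the deposited TPM values, which correct for transcript length. The summed TPM of Igfbp1 to Igfbp7 was 1849 to 2281 on day 4, against 4467 to 5219 in MEFs. Igfbp3 made up 71.3% to 82.1% of that sum on day 4, against 16.6% to 30.7% in MEFs. Igfbp5 made up 2.1% to 6.06% on day 4, against 28.5% to 41.8% in MEFs, and Igfbp4 made up 8.33% to 16.5% on day 4, against 20.1% to 28% in MEFs. In MEFs Igfbp5 was at the top in both replicate 2 libraries and close to Igfbp3 in both replicate 1 libraries, whereas Igfbp3 was first in all 8 day 4 libraries. Igfbp1 had no count in any library, and a count of 0 allows up to 0.132 to 0.205 CPM (3 counts of each library's total, counting error only). The ratio of Igf1r to Igf2r in TPM was 0.223 to 0.262 on day 4, against 0.1 to 0.106 in MEFs. These shares and ratios were not tested, and shares of 1 sum are not independent of each other.

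**Figure D2:**
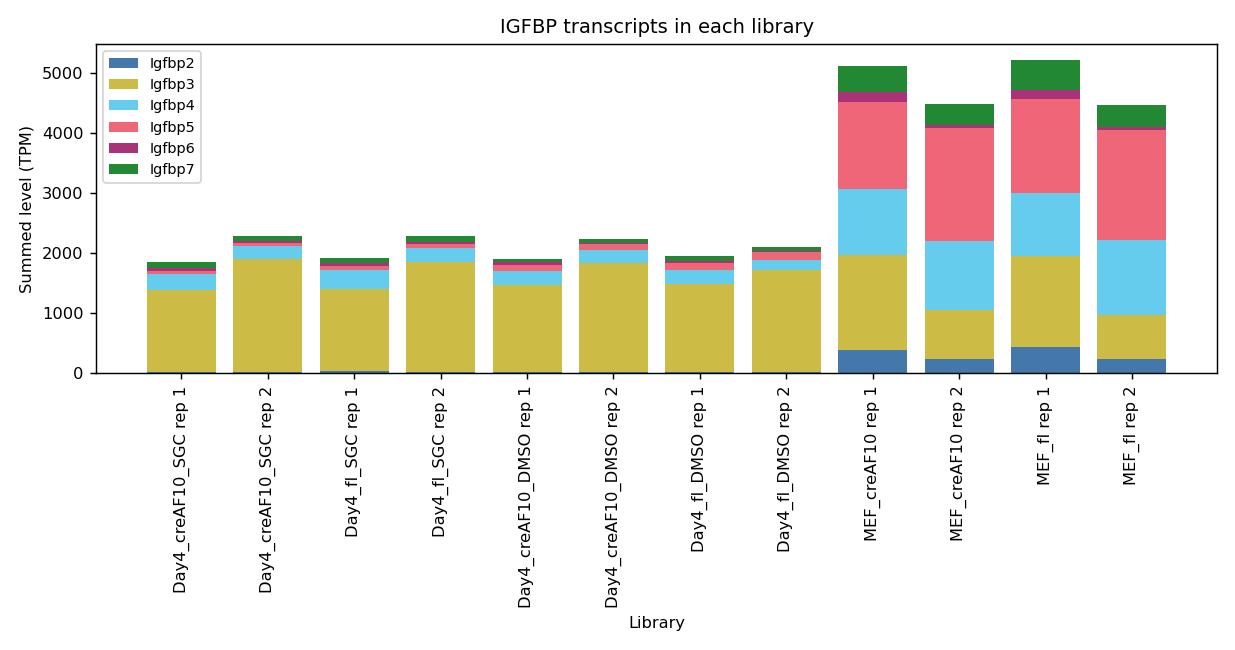
Summed TPM of the IGFBP genes in each library, stacked by gene, with day 4 libraries left of MEF libraries. Igfbp3 fills 71.3% to 82.1% of each day 4 bar and 16.6% to 30.7% of each MEF bar, and the MEF bars are taller.

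Beside these falls, 7 of the 8 fibroblast markers, among them the collagen genes Col1a1 and Col3a1, were also lower on day 4 in both genotypes, with a median log2 change of -2.04 in AF10-deleted cells and -1.96 in fl cells. Markers of other cell types moved as well. All 4 tested chondrocyte and osteoblast markers fell (sum 11.5 to 24.5 CPM on day 4, against 62.6 to 159 CPM in MEFs), as did all 3 tested neural markers (28.9 to 57.9 CPM on day 4, against 69 to 111 CPM in MEFs) and both tested skeletal muscle markers (0.664 to 2.22 CPM on day 4, against 6.13 to 9.84 CPM in MEFs). Of the 3 tested endothelial markers 1 rose and 1 fell, and their higher sum on day 4 was Tek, while Tie1 stayed at or below 0.0921 CPM. Keratinocyte markers summed to 20.3 to 29.2 CPM in the DMSO libraries of day 4, against 4.74 to 7.28 CPM in MEFs, which was Trp63, and 1 of the 2 tested rose in both genotypes. Of the 3 tested adipocyte markers 1 rose in AF10-deleted cells and none was called in fl cells. These counts are from the fit without pairing. There 27.5% of all genes rose and 27.5% fell in AF10-deleted cells, and 25.7% rose and 26.3% fell in fl cells. With the replicate block, 2 of the 3 adipocyte markers and 1 of the 2 keratinocyte markers were lower in each genotype. That fit also called 1 macrophage and blood marker lower in AF10-deleted cells. In it 31% of all genes fell in AF10-deleted cells and 30.2% in fl cells. The part of these markers' cell types in the changes of the IGF genes was not tested.

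The next question was what DOT1L inhibition with SGC0946 does to these genes on day 4. Without pairing, Igfbp5 was the only gene of the 10 called in fl cells, where 0.883% of all genes rose and 0.23% fell. None of the 10 was called in AF10-deleted cells, where 0.00718% of all genes were called (edgeR). In that comparison 2 of the 10 genes and 955 of all genes had an unadjusted p under 0.05 (edgeR without pairing). DESeq2 called 1 of the 10 and 0.358% of all genes there. In the fit paired by replicate number within each stage, 5 of the 10 were called higher and 1 lower in fl cells, where 10.6% of all genes rose and 7.1% fell. Pairing gave 1 higher and 1 lower call in AF10-deleted cells, where 5.28% of all genes rose and 2.47% fell. With the replicate number as 1 block over all 12 libraries, only Igfbp5 was called in AF10-deleted cells, and Igfbp5 and Igfbp2 in fl cells, where 0.667% and 5.78% of all genes were called. The median log2 change of the 10 genes without pairing was 0.03 in AF10-deleted cells and 0.21 in fl cells, against 0.00 and -0.01 over all genes.

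Igfbp5 had 114.5 and 145.4 CPM in Day4_creAF10_SGC, against 268.3 and 287.2 CPM in Day4_creAF10_DMSO, and it had 165.4 and 183.7 CPM in Day4_fl_SGC, against 334.5 and 355.6 CPM in Day4_fl_DMSO. Each SGC0946 library was clearly below each DMSO library of its genotype. In fl cells it fell by 0.98 ± 0.14 on the log2 scale (edgeR adjusted p = 0.0196 without pairing and 6.53e-10 with it), and the unpaired call was lost without any 1 of the 4 libraries (edgeR adjusted p = 0.11 to 0.178, change -1.06 to -0.91). In AF10-deleted cells the change was -1.10 ± 0.14 (edgeR adjusted p = 0.0629 without pairing), and it passed in the paired fit (-1.10 ± 0.08, edgeR adjusted p = 1.01e-09). Levels in SGC0946 were 2.14-fold lower in AF10-deleted cells and 1.98-fold lower in fl cells, and the difference between these changes was -0.11 ± 0.20, which did not pass the test (edgeR adjusted p = 1 without pairing and 0.782 with it).

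In the paired fit 4 other binding proteins rose in fl cells, and 1 of them, Igfbp7, rose also in AF10-deleted cells. Igfbp7 had 55.31 and 45.07 CPM in Day4_creAF10_SGC, against 35.26 and 37.14 CPM in Day4_creAF10_DMSO, and 49.23 and 50.60 CPM in Day4_fl_SGC, against 39.52 and 32.00 CPM in Day4_fl_DMSO. SGC0946 libraries were above DMSO libraries in both genotypes with no overlap. Its log2 change was 0.47 ± 0.20 in AF10-deleted cells and 0.48 ± 0.20 in fl cells (edgeR adjusted p = 0.718 and 0.349), and in the paired fit it rose by 0.46 ± 0.09 and 0.49 ± 0.09 (edgeR adjusted p = 0.00139 and 0.000285).

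Igfbp4 had 321.0 and 241.8 CPM in Day4_fl_SGC, against 229.3 and 169.6 CPM in Day4_fl_DMSO, and it rose in fl cells in the paired fit but not in the unpaired one (0.50 ± 0.08, edgeR adjusted p = 2.47e-05 paired and 0.293 unpaired). Igfbp6 had 32.30 and 22.73 CPM in Day4_fl_SGC, against 23.50 and 12.42 CPM in Day4_fl_DMSO. Igfbp2 had 21.32 and 11.40 CPM in Day4_fl_SGC, against 12.93 and 8.39 CPM in Day4_fl_DMSO. The SGC0946 library was the higher one of its pair in each of these genes, although the groups of Igfbp2 and Igfbp6 overlapped. In the paired fit Igfbp6 rose by 0.65 ± 0.10 and Igfbp2 by 0.61 ± 0.11 in fl cells (edgeR adjusted p = 3.75e-05 and 0.000315), and neither passed without pairing (edgeR adjusted p = 0.769 and 0.662). In AF10-deleted cells the paired changes of Igfbp2 (0.37 ± 0.12), Igfbp4 (0.09 ± 0.08) and Igfbp6 (0.22 ± 0.10) did not pass (edgeR adjusted p = 0.0511, 0.562 and 0.207). The paired change of Igfbp4 there minus that in fl cells was -0.41 ± 0.11, which did not pass either (edgeR adjusted p = 0.101).

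Igf1 had 30.31 and 31.48 CPM in Day4_creAF10_SGC, against 48.92 and 32.12 CPM in Day4_creAF10_DMSO, and 45.70 and 43.62 CPM in Day4_fl_SGC, against 37.05 and 31.40 CPM in Day4_fl_DMSO. Values in SGC0946 were thus above DMSO in fl cells and below it in AF10-deleted cells, where replicate 1 carried most of the gap. In fl cells Igf1 rose in the paired fit (0.39 ± 0.11, edgeR adjusted p = 0.0229 paired and 0.439 unpaired). In AF10-deleted cells the paired change was -0.38 ± 0.12 (edgeR adjusted p = 0.0585), with -0.69 within replicate 1 and -0.03 within replicate 2. The difference between these changes was -0.76 ± 0.16 in the paired fit, with -0.99 in replicate 1 and -0.50 in replicate 2, and it stood just outside the threshold (edgeR adjusted p = 0.0502 paired and 1 unpaired). None of the 10 genes passed that test of the difference, where 0.395% of all genes did in the paired fit and 0% did without pairing (1 of the 10 genes and 303 of all genes had an unadjusted p under 0.05 without pairing, and DESeq2 called none of the 10).

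Igf1r, Igf2r, Irs1 and Igfbp3 had no call with SGC0946 in either genotype. Igf1r had 182.3 and 192.3 CPM in Day4_creAF10_SGC, against 189.9 and 200.2 CPM in Day4_creAF10_DMSO, and 201.3 and 206.7 CPM in Day4_fl_SGC, against 218.9 and 235.4 CPM in Day4_fl_DMSO. The change in fl cells was -0.16 ± 0.07 in the paired fit (edgeR adjusted p = 0.115). Igfbp3 had 1638 and 2189 CPM in Day4_creAF10_SGC and 1640 and 2160 CPM in Day4_fl_SGC, inside or near the range of its DMSO libraries. Igf2r had 581.7 and 641.4 CPM in Day4_creAF10_SGC and 622.5 and 689.2 CPM in Day4_fl_SGC, and Irs1 had 120.2 and 151.8 CPM in Day4_creAF10_SGC and 122.6 and 147.3 CPM in Day4_fl_SGC. Both overlapped their DMSO groups.

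The fibroblast marker sum stayed within 11800 to 14100 CPM in all day 4 libraries, and in the paired fit 2 of its 8 genes rose with 1 lower in AF10-deleted cells and 2 lower in fl cells. Adipocyte markers summed to 34.9 to 40.4 CPM in Day4_creAF10_SGC, against 20.3 to 30.8 CPM in Day4_creAF10_DMSO, and 35.8 to 39.7 CPM in Day4_fl_SGC, against 15.5 to 21.2 CPM in Day4_fl_DMSO. That sum was mostly Fabp4, the 1 called gene of 3 tested, while Adipoq stayed at or below 0.112 CPM on day 4. Keratinocyte markers summed to 41 to 52 CPM in SGC0946, against 20.3 to 29.2 CPM in DMSO. That sum was Trp63, while Krt5 and Krt14 stayed at or below 0.395 CPM. In fl cells 2 of 7 macrophage and blood markers were lower in the paired fit. There 1 of 4 chondrocyte and osteoblast markers was higher, and of 3 neural markers 1 was higher and 1 lower. In AF10-deleted cells 1 of 3 neural markers was higher, and the macrophage and chondrocyte lists had no call. Endothelial and skeletal muscle markers had no call in either genotype. Over all genes in the paired fit, 10.6% rose and 7.1% fell in fl cells, and 5.28% rose and 2.47% fell in AF10-deleted cells.

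**Figure D3:**
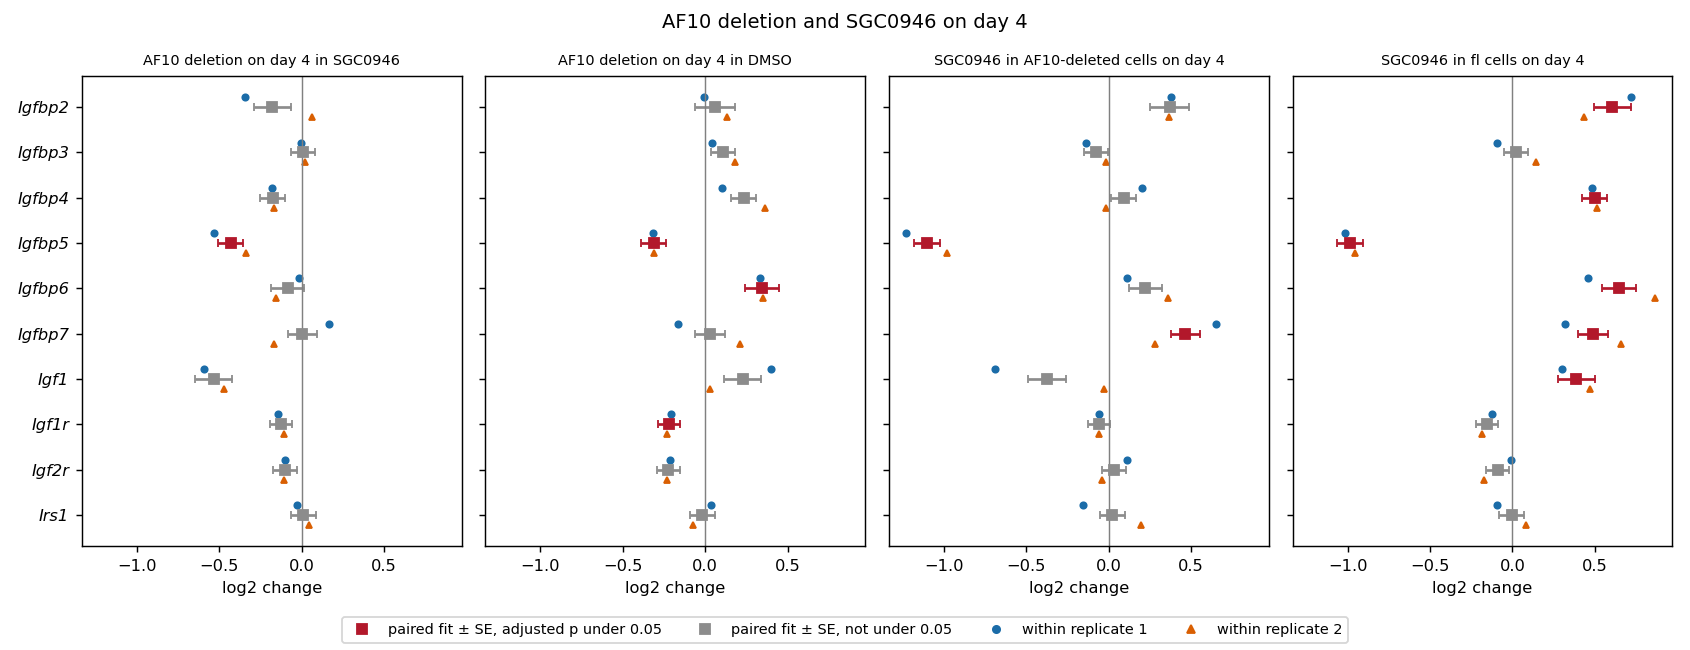
Log2 change of each gene on day 4 for AF10 deletion in SGC0946, AF10 deletion in DMSO, SGC0946 in AF10-deleted cells and SGC0946 in fl cells, one panel each; squares are the fit paired by replicate number with its SE (red where the adjusted p is under 0.05, grey otherwise), and small circles and triangles are the changes within replicates 1 and 2. Igfbp5 is red and left of 0 in all 4 panels, at -0.43, -0.31, -1.10 and -0.98, and the panels share control libraries.

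The last question was what AF10 deletion does. Without pairing, edgeR called none of the 10 genes in SGC0946, in DMSO or in MEFs, and no other tested gene (0% called in each; 2, 1 and 0 of the 10 genes and 251, 988 and 300 of all genes had an unadjusted p under 0.05, and DESeq2 called none of the 10 and 0.0144%, 0.115% and 0.187% of all genes). In the paired fit 1 of the 10 was lower in SGC0946, where 0.1% of all genes fell and 0.0718% rose. In DMSO 2 were lower and 1 was higher, where 3.37% of all genes fell and 3.37% rose. With the replicate number as 1 block over all 12 libraries no call of the 10 was left on day 4, where 0% of all genes were called in SGC0946 and 0.00718% in DMSO. In MEFs none of the 10 was called in the paired fit, where 0.84% of all genes fell and 0.122% rose.

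Igfbp5 was the gene called under both treatments, in the fit paired within each stage alone. It had 114.5 and 145.4 CPM in Day4_creAF10_SGC, against 165.4 and 183.7 CPM in Day4_fl_SGC, and 268.3 and 287.2 CPM in Day4_creAF10_DMSO, against 334.5 and 355.6 CPM in Day4_fl_DMSO. The deleted libraries were the lower ones in each treatment, with no overlap. In the paired fit it fell by 0.43 ± 0.08 in SGC0946 and by 0.31 ± 0.08 in DMSO (edgeR adjusted p = 0.0112 in each), and neither passed without pairing (edgeR adjusted p = 1 and 0.699) or with 1 block over all libraries (0.841 and 0.206). In MEFs it had 4002 and 4915 CPM in MEF_creAF10, against 4288 and 4831 CPM in MEF_fl, with overlapping groups. The paired change in DMSO minus that in MEFs was -0.28 ± 0.10 (edgeR adjusted p = 0.229), so a difference between the stages was not shown.

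The ordering of the 6 groups by Igfbp5 was Day4_creAF10_SGC, Day4_fl_SGC, Day4_creAF10_DMSO and Day4_fl_DMSO with ranges that did not overlap, and then MEF_creAF10 and MEF_fl, which overlapped. Igf1r had its MEF groups at the bottom, then Day4_creAF10_SGC and Day4_creAF10_DMSO, which overlapped, then Day4_fl_SGC and, at the top, Day4_fl_DMSO. For each of the other 8 genes at least 1 pair of day 4 groups overlapped.

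In DMSO, Igf1r had 189.9 and 200.2 CPM in Day4_creAF10_DMSO, against 218.9 and 235.4 CPM in Day4_fl_DMSO, with the deleted libraries lower. In the paired fit it fell by 0.22 ± 0.07 (edgeR adjusted p = 0.0446 paired and 0.66 unpaired). Igfbp6 had 29.64 and 15.86 CPM in Day4_creAF10_DMSO, against 23.50 and 12.42 CPM in Day4_fl_DMSO, where the groups overlapped but each deleted library was above its pair. It rose by 0.34 ± 0.10 in the paired fit (edgeR adjusted p = 0.0439 paired and 0.976 unpaired). Igf2r, with a paired change of -0.22 ± 0.07, and Igfbp4, with 0.23 ± 0.08, did not pass (edgeR adjusted p = 0.0603 and 0.0658).

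In SGC0946, Igf1 had 30.31 and 31.48 CPM in Day4_creAF10_SGC, against 45.70 and 43.62 CPM in Day4_fl_SGC. The deleted libraries were lower with no overlap, by 0.59 within replicate 1 and 0.47 within replicate 2 on the log2 scale. The paired change of -0.53 ± 0.12 did not pass (edgeR adjusted p = 0.0825). Igfbp4 had a paired change of -0.17 ± 0.08 (edgeR adjusted p = 0.587). In MEFs the paired change of Igfbp7 was -0.16 ± 0.08 (edgeR adjusted p = 0.691), and the other 9 genes had no unadjusted p under 0.05. None of the 10 genes passed the test of whether deletion acts differently on day 4 and in MEFs, where 1.16% of all genes did in the paired fit and 0% without pairing (0 of the 10 genes and 507 of all genes had an unadjusted p under 0.05 without pairing, and DESeq2 called none of the 10). The fibroblast markers gave no call with deletion in either fit, nor did any other marker list without pairing. In the paired fit 3 lists had a call, all with deletion in DMSO: 1 of 7 macrophage and blood markers was lower, 1 of 3 adipocyte markers was higher and 1 of 2 keratinocyte markers was higher. Over all genes in that comparison, 3.37% rose and 3.37% fell. There Fabp4 had 14.5 and 20.4 CPM in Day4_creAF10_DMSO, against 10.7 and 11.6 CPM in Day4_fl_DMSO, and Trp63 had 27.2 and 29 CPM in Day4_creAF10_DMSO, against 20.2 and 20.3 CPM in Day4_fl_DMSO. Their part in the changes of the IGF genes was not tested.

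Other parts of the pathway were read from lists that name the genes by role. Of 11 other ligands, receptors, substrates and binding proteins, 7 passed the filter. On day 4 against MEFs 4 of the 7 rose and 1 fell in AF10-deleted cells (all genes, 27.5% and 27.5%) and in fl cells (all genes, 25.7% and 26.3%). The fall was that of the ligand gene Igf2, with 675.9 and 970.9 CPM in Day4_creAF10_DMSO against 6436 and 8658 CPM in MEF_creAF10, and 796.1 and 1118 CPM in Day4_fl_DMSO against 7012 and 7778 CPM in MEF_fl. Igf2 was therefore lower on day 4 together with Igf1, by 3.20 ± 0.33 on the log2 scale in AF10-deleted cells and 2.95 ± 0.33 in fl cells (edgeR adjusted p = 7.37e-05 and 0.000119). Irs2, an adaptor related to Irs1, rose by 1.36 ± 0.12 in AF10-deleted cells and by 1.59 ± 0.12 in fl cells (edgeR adjusted p = 1.4e-05 and 5.75e-06). Insr, the insulin receptor gene, was at 104.0 to 118.6 CPM in the DMSO libraries of day 4, against 58.9 to 66.94 CPM in MEFs. The rarer Irs4 and Igfbpl1 also rose, with at most 2.93 and 2.576 CPM in these day 4 libraries, and Igfbpl1 had no count in either MEF_creAF10 library.

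With SGC0946, Igf2 fell in the paired fit by 0.76 ± 0.08 in AF10-deleted cells and by 0.47 ± 0.08 in fl cells (edgeR adjusted p = 3.34e-07 and 5.49e-05). With AF10 deletion in SGC0946 it fell by 0.51 ± 0.08 (edgeR adjusted p = 0.00218). None of the 7 was called with SGC0946 or deletion without pairing. The levels of Igf2 were 388.1 and 586.9 CPM in Day4_creAF10_SGC, against 536.7 and 861.0 CPM in Day4_fl_SGC. Grb10 fell in SGC0946 in the paired fit by 0.37 ± 0.07 in AF10-deleted cells and by 0.48 ± 0.07 in fl cells (edgeR adjusted p = 0.00123 and 1.77e-05), and by 0.27 ± 0.07 with deletion in DMSO (0.0213).

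Of the 7 proteases that cut IGFBPs and their inhibitors, 1 rose and 3 fell on day 4 in AF10-deleted cells, and 1 rose and 4 fell in fl cells, where 27.5% and 25.7% of all genes rose and 27.5% and 26.3% fell. Stc2, an inhibitor of PAPP-A, rose by 1.39 ± 0.16 in AF10-deleted cells and 0.98 ± 0.15 in fl cells, while its relative Stc1 fell by 3.05 ± 0.56 and 2.84 ± 0.55 (edgeR adjusted p = 6.18e-05 to 0.00333). In SGC0946, 2 of the 7 rose in AF10-deleted cells and 3 rose in fl cells in the paired fit, where 5.28% and 10.6% of all genes rose, and none fell. Without pairing none of the 7 was called in either genotype. Htra1, a secreted serine protease reported to cut IGFBP5, had 99.78 and 69.50 CPM in Day4_creAF10_SGC, against 67.54 and 42.62 CPM in Day4_creAF10_DMSO, and 109.7 and 74.46 CPM in Day4_fl_SGC, against 58.82 and 34.34 CPM in Day4_fl_DMSO. It rose by 0.63 ± 0.07 in AF10-deleted cells and by 1.00 ± 0.07 in fl cells (edgeR paired, adjusted p = 3.33e-06 and 2.3e-10). Igfbp5 transcripts fell in the same comparisons, but these data hold no protein, and a relation between Htra1 and Igfbp5 was not tested.

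Of 25 genes that act downstream of the receptor, 5 rose and 9 fell on day 4 in AF10-deleted cells, and 5 rose and 6 fell in fl cells, with a median log2 change of -0.08 and -0.01. These counts lie near the shares over all genes, 27.5% higher and 27.5% lower in AF10-deleted cells and 25.7% higher and 26.3% lower in fl cells. Pik3cb, a catalytic subunit of phosphoinositide 3-kinase, rose by 2.34 ± 0.16 in AF10-deleted cells and 2.50 ± 0.16 in fl cells, and the regulatory subunit gene Pik3r1 fell by 1.13 ± 0.14 and 1.10 ± 0.14 (edgeR adjusted p = 2.69e-06 to 0.000134). Akt1 fell by 0.76 ± 0.10 in AF10-deleted cells and 0.59 ± 0.10 in fl cells. With SGC0946 in the paired fit 1 of the 25 fell in AF10-deleted cells, and 2 rose and 3 fell in fl cells, where 5.28% and 10.6% of all genes rose and 2.47% and 7.1% fell. With deletion in DMSO 4 of the 25 fell and none rose in that fit, where 3.37% of all genes fell, among them Pik3r3 (by 0.37 ± 0.08), Foxo3, a transcription factor that AKT restrains (by 0.32 ± 0.09), and Grb10. Without pairing none of the 25 was called with SGC0946 or with deletion. Pik3r3, another regulatory subunit gene, was the list's 1 call for a different response to SGC0946 in deleted cells, where 0.395% of all genes were called. Its difference was 0.62 ± 0.12 (edgeR paired, adjusted p = 0.0138), and with SGC0946 it fell by 0.66 ± 0.09 in fl cells in that fit. The test of the difference called none of the 25 and 0% of all genes without pairing.

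The genes most like each of the 10 in their log2 CPM over the 12 libraries were also listed, as a description in which all libraries share the gap between the stages. Igfbp5 was closest to Lrig3 (r = 0.995) and Boc (0.994), Igfbp2 to Pdgfrb (0.996) and C1qtnf6 (0.995), Igfbp4 to Cxcr7 (0.996) and Bace2 (0.994), and Igfbp7 to Myl9 (0.997) and Copb2 (0.994). Igfbp6 was closest to Prkcb (0.986) and Angptl2 (0.984), and Igfbp3, which lacked the common fall, to Gas6 (0.968) and Cplx2 (0.961). Igf1 was closest to Pcdhga10 (0.996) and Nkd1 (0.994), Igf1r to Eya3 (0.99) and Fut9 (0.989), Igf2r to Cpd (0.96) and Ap2b1 (0.955), and Irs1 to Vezf1 (0.964) and Pak2 (0.957).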

How the data were processed

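RNA-seq libraries of 6 groups with 2 libraries each were analysed. Per the submitters' processing notes, reads were processed with RSEM and Bowtie against build mm9, and versions are not given in the sources used here. Per the file headers, the deposited tables hold RSEM expected counts, TPM and FPKM per gene. Reads shared by near-identical genes are split between them by RSEM, so such genes are uncertain, and the library kit does not mark strand. TPM served for shares and ratios, and the deposited FPKM was not used further.

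Expected counts were rounded. Genes were matched by transcript identifiers, since the files of 10 libraries hold 25 gene names turned into dates. Genes kept by edgeR's filterByExpr (13936 of 20325) were tested with a quasi-likelihood model of the 6 groups fitted to all 12 libraries (edgeR 4.0.16, R 4.3.3, TMM scaling, robust), with Benjamini-Hochberg adjustment over all of them and a threshold of 0.05. CPM uses TMM-scaled totals, SE is the size of the log2 change divided by the root of F, and ± after a log2 change is that SE. The 10 genes were all named, with up to 3 called genes per direction of each pathway list and the 2 most similar genes of each; members and lists were chosen with earlier results of these data known.

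Pairing was checked over 15 pairs of groups. Same-numbered libraries deviated together, with correlations of 0.413 to 0.737 within a stage and a weaker 0.286 to 0.34 across stages. The 4 Y-linked genes summed to 4035 to 4780 expected counts in replicate 1 libraries and 8 to 52 in replicate 2 libraries. The paired fit has the replicate number as a block within each stage, and for day 4 against MEFs as 1 block over all libraries. Alternatives were DESeq2 1.42.0, RLE scaling, no low-count filter and leaving out each library. The script was checked on simulated counts, with a smaller spread than in these data and the same replicate shift in both stages. That check does not give the rate of false calls in these data.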

Additional observations from a re-analysis of the deposited data

How the results depend on the processing

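RLE scaling and the absence of a low-count filter changed no call of the 10 genes in any of the 9 comparisons. With SGC0946 in fl cells the number of the 10 genes called was 1 without pairing, 2 with the replicate number as 1 block, 6 with it as a block per stage, and 0 when any 1 library was left out. With SGC0946 in AF10-deleted cells it was 0 without pairing, 1 with 1 replicate block, 2 with the block per stage and 1 with DESeq2. With AF10 deletion the block per stage gave 3 calls in DMSO and 1 in SGC0946, against 0 each without pairing and 0 each with 1 replicate block. Between day 4 and MEFs a block per stage gave 10 calls in AF10-deleted and 10 in fl cells, Igfbp3 among them, against 9 and 7 with 1 replicate block and 7 and 6 without pairing; the per-stage calls are not used in the text because that block takes the disagreement between replicates, as for Igfbp3, out of the error. DESeq2 also called Igfbp6 in fl cells (7 calls) and Irs1 in AF10-deleted cells (8 calls). Leaving out 1 library gave 6 to 7 calls in each genotype for that comparison.

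Some changes that were not called without pairing took the other sign when 1 library was left out. With AF10 deletion these were Igfbp7 in MEFs (-0.40 to 0.11), Igfbp6 in DMSO (-0.17 to 0.86) and Igfbp4 in SGC0946 (-0.38 to 0.044). With SGC0946 they were Igfbp6 in AF10-deleted cells (-0.18 to 0.72) and the difference between genotypes of Igfbp6 (-0.94 to 0.10). A library left out here breaks its replicate pair. Of the 44 other changes of the 10 genes, all uncalled and within -0.24 to 0.24, 37 took the other sign without 1 or more libraries.

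With 2 libraries per group and a biological coefficient of variation of 0.148, small changes were not detectable without pairing.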
